A study of Sus scrofa with 25 samples.

Results

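Small leucine-rich proteoglycans are a family of secreted matrix proteins, and 7 of their genes were followed across the muscle libraries of 25 pigs on 3 vitamin D3 diets. The genes were decorin (DCN, ENSSSCG00000000915), biglycan (BGN, ENSSSCG00000012766), asporin (ASPN, ENSSSCG00000008072), lumican (LUM, ENSSSCG00000000916), fibromodulin (FMOD, ENSSSCG00000015270), PRELP (ENSSSCG00000015271) and osteoglycin (OGN, ENSSSCG00000034607). They were chosen by symbol in the Ensembl table of pig gene names, not by their values. Each symbol matched 1 of the 25879 gene identifiers analysed, and all 7 were among the 10992 genes with enough counts to test.

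The proteins of this family carry a run of leucine-rich repeats that binds collagen, and they set how collagen molecules assemble into fibrils and how wide the fibrils grow. Several of them also hold growth factors of the TGF-beta family in the matrix, and decorin binds myostatin, the brake on muscle growth. In muscle they are made mostly by fibroblast-like cells of the connective tissue around fibres and fibre bundles. By protein type, decorin, biglycan and asporin form class I, lumican, fibromodulin and PRELP belong to class II, and osteoglycin belongs to class III. In the RefSeq gene table of the Sscrofa11.1 assembly DCN and LUM are direct neighbours, as are FMOD and PRELP. OGN and ASPN lie on either side of OMD, another member of the family, and BGN is on the X chromosome. The genome build of the counts was not given in the sources used here, so no coordinates are printed.

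All pigs were crosses, with Landrace sires and Polish Large White dams. Each litter was spread over the diets at day 85 of life. For 90 days the feeds were equal in protein and energy and differed in vitamin D3, with 0 IU/kg for 8 pigs (control), 5000 IU/kg for 8 pigs (D5000) and 10000 IU/kg for 9 pigs (D10000). Each pig gave 1 library of muscle RNA. Which muscle was taken, which litter a pig came from and its sex are not in the sources used here. A replicate is named by its animal number.

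The libraries held 3310507 to 15177976 gene counts each, and 24.9% to 70.6% of the reads in a file were assigned to genes. Transcripts of muscle fibres were abundant in 24 libraries: 6 markers, with skeletal actin (ACTA1) the most abundant, summed to 54028 to 242657 CPM (a gene's reads scaled to the gene total of its library). D10000 replicate 27 stood apart. Its muscle fibre markers summed to 12200 CPM, below all other libraries, and its 8 adipocyte markers (ADIPOQ, PLIN1, PLIN4, LEP, CIDEC, FABP4, LIPE and PNPLA2) to 10457 CPM, against 168 to 607 CPM elsewhere. Each of these 8 markers was highest in that library. Its 9 fibroblast markers summed to 7027 CPM against 595 to 2766 CPM, with 5 of 9 highest there. This list shares COL1A1, COL1A2 and COL3A1 with the collagens described further on, and the defining marker PDGFRA stood at 0.622 CPM, inside the range of the other libraries (0 to 3.67 CPM). Its 5 smooth muscle and pericyte markers summed to 582 CPM against 92.5 to 350 CPM elsewhere, with 3 of 5 highest there. Its 3 endothelial markers summed to 359 CPM against 42.9 to 165 CPM elsewhere. Of these PECAM1 alone was highest there, and CDH5 stood at 1.09 CPM against 0.906 to 22.3 CPM. Its 4 macrophage markers, at 115 CPM, lay inside their range elsewhere (36.4 to 218 CPM). Liver transcripts (ALB, APOA1, APOC3 and TTR) were present in all muscle libraries, at 2045 to 23152 CPM in 24 of them and 1515 CPM in D10000 replicate 27. Diet comparisons below are therefore given with and without that library. The levels of single genes by diet include it unless stated. In whole tissue, fewer cells of a type and less RNA per cell cannot be told apart.

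By median CPM decorin led the group. The library kit reads the 3' end of a transcript, so CPM was compared between genes without a correction for length. How fully the counted gene models cover these ends was not tested, and 16.3% to 37.2% of a file's reads lay in no feature. The order of the genes and their shares are therefore those of counted reads. The median level over 25 libraries was 83.1 CPM for DCN, 39.0 for OGN, 26.3 for BGN, 13.2 for LUM, 12.7 for PRELP, 9.99 for FMOD and 2.54 for ASPN. DCN lay above 90.7% of the tested genes, and ASPN above 18.2%. In this order DCN exceeded OGN in 19 of 25 libraries, OGN exceeded BGN in 19, BGN exceeded LUM in 21 and FMOD exceeded ASPN in 24. LUM and PRELP could not be ranked against each other, since LUM was the higher of them in 11 of 25 libraries. PRELP exceeded FMOD in 17. Read numbers set the precision: DCN had 201 to 2142 reads per library, whereas ASPN had 2 to 132. The 2 reads of ASPN in D10000 replicate 1 gave 0.246 CPM with an exact 95% interval of 0.0298 to 0.889 CPM, which covers counting error only.

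The class I genes differed in how far they spread. DCN, a proteoglycan with 1 chondroitin or dermatan sulphate chain, ran from 22.4 to 133 CPM in the control (median 75.0), from 26.1 to 495 in D5000 (median 74.6) and from 53.4 to 352 in D10000 (median 90.3). The diets overlapped over most of this range, and the extremes were D5000 replicate 18 at 495 CPM and D10000 replicate 2 at 352 CPM. BGN, the closest relative of decorin, ran from 20.2 to 82.0 CPM in the control (median 27.3), from 14.3 to 60.8 in D5000 (median 25.1) and from 15.9 to 455 in D10000 (median 34.7, or 30.3 without replicate 27). The value of 455 CPM belonged to D10000 replicate 27, and the next D10000 library stood at 68.2 CPM, below the highest control. ASPN, which carries an aspartate-rich stretch and no sugar chain of this kind, ran from 0.281 to 5.99 CPM in the control, 0.833 to 5.92 in D5000 and 0.246 to 16.0 in D10000, with medians of 2.23, 2.36 and 3.53. Of 9 D10000 libraries 4 (2, 7, 27 and 30) lay above the highest control, and 1 lay below the lowest.

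Among class II genes, LUM, a keratan sulphate proteoglycan, ran from 3.18 to 15.0 CPM in the control with a median of 12.5. It ran from 4.94 to 32.04 CPM in D5000 (median 13.1) and from 3.69 to 32.5 in D10000 (median 20.3, or 16.8 without replicate 27). Of the libraries on vitamin D3, 4 of 8 in D5000 and 5 of 9 in D10000 (20, 21, 26, 27 and 30) lay above the highest control, and the others lay within the control range. FMOD, which shares a collagen site with lumican, ran from 4.51 to 24.0 CPM in the control (median 8.75), from 2.95 to 25.2 in D5000 (median 10.0) and from 5.46 to 206 in D10000 (median 10.7). As for BGN, the highest value was that of D10000 replicate 27, and the next D10000 library stood at 19.3 CPM. PRELP, which ties basement membranes to connective tissue, ran from 10.0 to 33.6 CPM in the control (median 15.3), from 2.04 to 22.2 in D5000 (median 16.1) and from 3.20 to 68.4 in D10000 (median 12.1). D10000 replicate 27 again held the highest value, while 4 of 9 D10000 libraries lay below the lowest control.

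The class III gene OGN, also known as mimecan, ran from 33.2 to 79.1 CPM in the control with a median of 45.3. In D5000 it ran from 20.8 to 105 CPM (median 35.4) and in D10000 from 31.4 to 1201 CPM (median 37.9). Both medians on vitamin D3 were below that of the control, and D10000 replicate 27 stood 11.4-fold above the highest of the other 24 libraries.

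**Figure D1:**
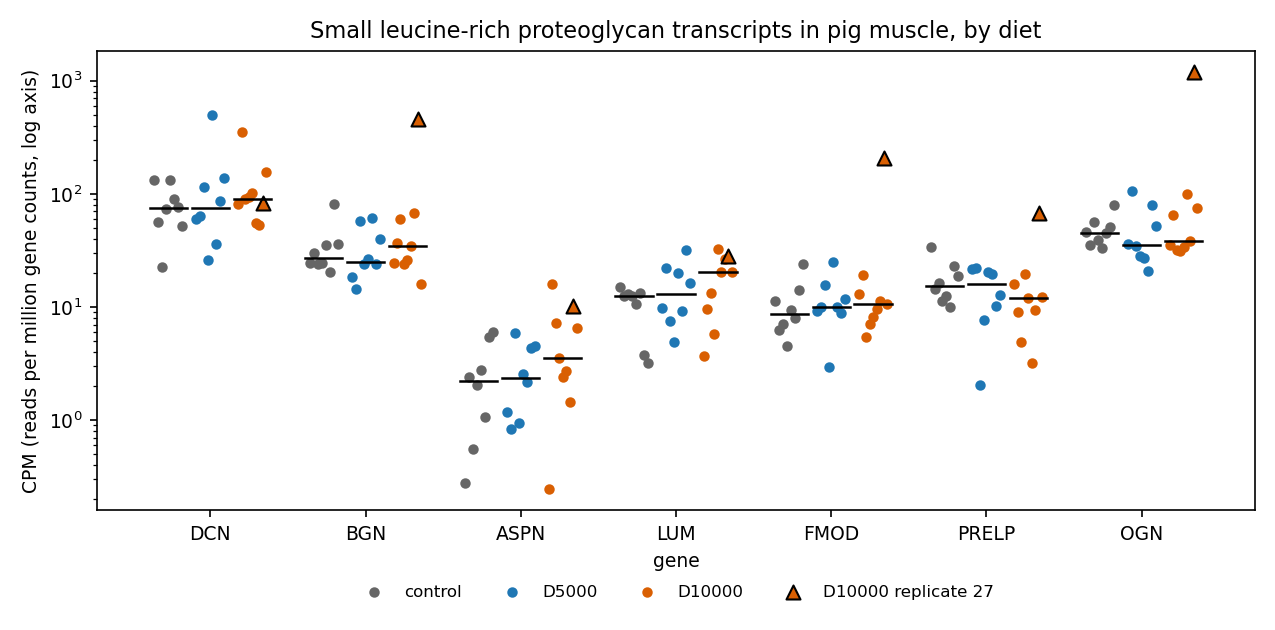
Level of each proteoglycan gene in CPM (log axis) by diet, with 1 point per pig, black bars at the median of a diet and a triangle for D10000 replicate 27. The diets overlap for each gene, and the triangle stands above all other points for BGN, FMOD, PRELP and OGN, at 455, 206, 68.4 and 1201 CPM, and among them for DCN, ASPN and LUM.

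D10000 replicate 27 divided the family. OGN was 31.2-fold its median in the other 24 libraries, FMOD 21.0-fold, BGN 17.4-fold and PRELP 5.44-fold. These 4 of 7 genes had their highest level of all 25 libraries there, as did 22.6% of the tested genes. ASPN was 4.15-fold and LUM 2.21-fold its median, and both were exceeded in at least 1 other library. DCN stood at 83.1 CPM (exact 95% interval 78.2 to 88.2), 0.998-fold its median in the other libraries, with 12 libraries above it. Over all tested genes the median of this ratio was 1.27. By this ratio DCN lay above 40.6% of the tested genes, LUM above 68.5%, ASPN above 84.7% and PRELP above 89.6%. BGN lay above 98.3%, FMOD above 98.7% and OGN above 99.3%. Direct neighbours stayed together: FMOD and PRELP were both highest there, and DCN and LUM were both not. On either side of OMD, OGN was highest and ASPN, at rank 2 of the 25 libraries, was not. The reads behind these values numbered 15436 for OGN, 5849 for BGN, 2647 for FMOD and 879 for PRELP. The part that adipocyte, fibroblast, smooth muscle, endothelial and muscle fibre markers, which move with this library, have in these levels was not tested.

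The collagens that these proteins bind were also uneven in that library. COL6A1 was 17.4-fold its median in the other libraries, COL5A2 11.4-fold, COL3A1 8.14-fold and COL1A1 4.96-fold. COL1A2 at 1.79-fold and COL14A1 at 1.06-fold remained inside the range of the other libraries, as DCN did. Of the other family members, ECM2, which lies next to ASPN, stood at 191 CPM against 2.33 to 43.2 CPM elsewhere. OMD, between OGN and ASPN, stood at 35.9 CPM against 0 to 27.8. The tendon marker TNMD had 29.2 CPM against at most 5.54 elsewhere, and COMP 15.5 CPM against at most 1.35. Of the other tendon markers, CHAD had 1.94 CPM against at most 0.794 elsewhere, and THBS4, the tested one of the 7, had 4.98 CPM, 0.491-fold its median elsewhere. KERA stood at 0.311 CPM, SCX at 0.0778 and MKX at 0. The 7 tendon markers summed to 52.0 CPM there and to between 0 and 53.2 CPM elsewhere.

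**Figure D2:**
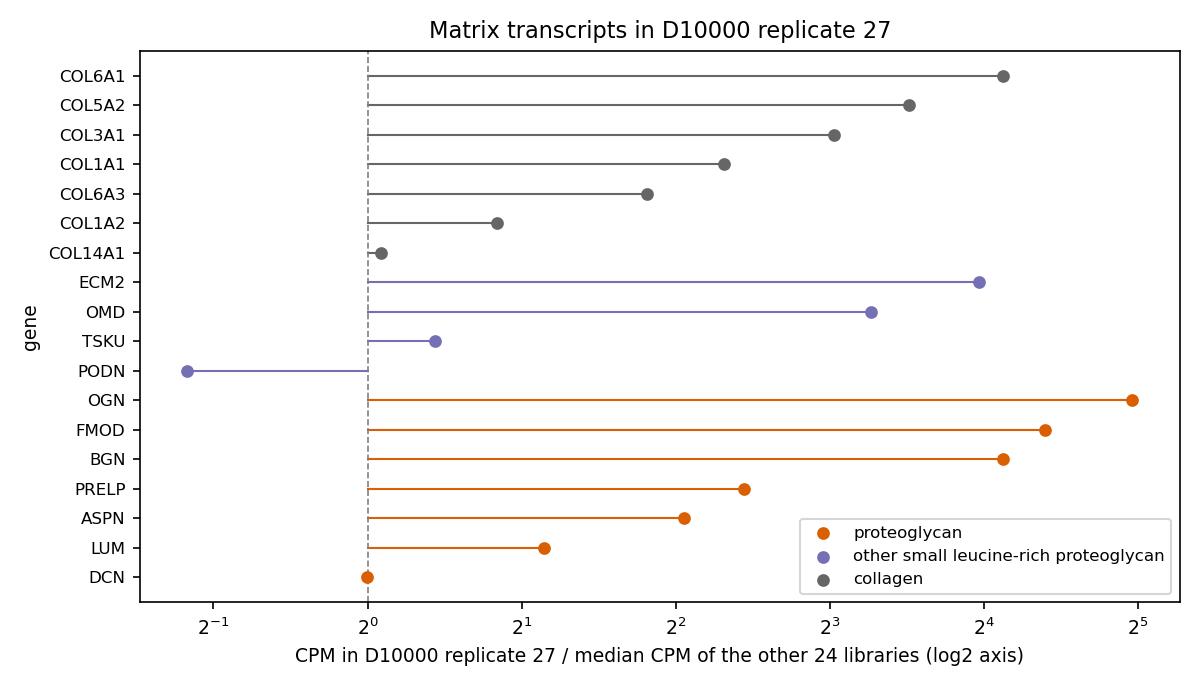
Level of matrix genes in D10000 replicate 27 divided by their median in the other 24 libraries (log2 axis), for the 7 proteoglycan genes, the 4 tested other family members and the 7 tested collagens of the list. The points spread from 0.445-fold for PODN to 31.2-fold for OGN, with DCN on the line at 1.

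The make-up of the group was described by each gene's share. Among the reads of the 7 genes in the other 24 libraries, DCN took a median of 43.3% (16.0% to 80.3%), OGN 20.2% (4.39% to 44.3%) and BGN 14.6% (4.27% to 38.4%). DCN was the largest of the 7 in 16 of these libraries, OGN in 5 and BGN in 3. In D10000 replicate 27 OGN took 58.5%, above its range elsewhere, and DCN took 4.05%, below its range. LUM took 1.38%, just below its range elsewhere of 1.45% to 15.0%. The shares of BGN (22.2%), FMOD (10.0%, elsewhere 2.57% to 10.9%) and PRELP (3.33%, elsewhere 0.852% to 13.9% with a median of 6.15%) lay inside theirs. The summed level was 2052 CPM there against 94.9 to 616 CPM elsewhere. In the controls the sum ran from 140 to 264 CPM with a median of 203, in D5000 from 94.9 to 616 with a median of 239, and in the other 8 D10000 libraries from 173 to 509 with a median of 215.

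**Figure D3:**
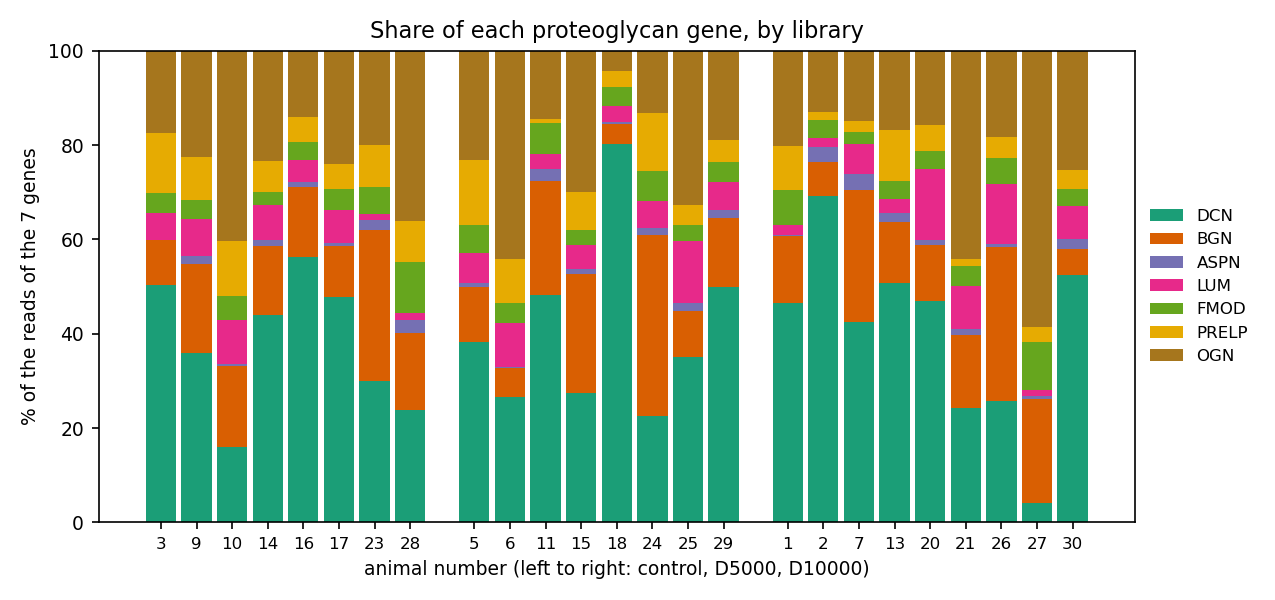
Share of each gene in the reads of the 7 proteoglycan genes (%), with 1 bar per library and the diets from left to right. DCN takes the largest part of most bars, up to 80.3% in D5000 replicate 18, and OGN takes 58.5% in D10000 replicate 27.

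The higher dose was set against the control to ask whether these transcripts move with vitamin D3. With all 25 libraries 6 of 7 genes had a log2 fold change above 0, as did 57.2% of the tested genes, and their median was 0.86 against 0.07 over all tested genes. The largest differences were those of OGN at 1.51 ± 0.63 (SE, n = 9 against 8), FMOD at 1.31 ± 0.53 and BGN at 1.01 ± 0.47. Without D10000 replicate 27 the same genes stood at -0.04 ± 0.36, -0.08 ± 0.33 and -0.0010 ± 0.31, and the median of the 7 was -0.0010. Then 3 of 7 were above 0, as were 51.8% of the tested genes. The other genes moved less when that library was left out: ASPN stood at 0.86 ± 0.62 with it and 0.75 ± 0.65 without it, LUM at 0.60 ± 0.46 and 0.56 ± 0.47, and DCN at 0.38 ± 0.39 and 0.47 ± 0.40. PRELP stood at -0.18 ± 0.43 with it and, the lowest of the group, at -0.69 ± 0.39 without it. Single libraries also moved other values: with all libraries but D10000 replicate 2 DCN stood at 0.14, and with all but D10000 replicate 7 PRELP stood at -0.01.

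In edgeR's quasi-likelihood test 0 of 7 proteoglycan genes passed the adjusted threshold of 0.05 at 10000 IU/kg, where 0% of 10992 genes did. At an unadjusted p under 0.05 there were 3 of 7 members, against 2.39% of the tested genes (263 genes). In edgeR the unadjusted p was 0.0202 for FMOD, 0.0244 for OGN and 0.041 for BGN, with an adjusted p of 1.00 for each. Without D10000 replicate 27 there were 0 of 7, against 1.76% of the tested genes, and the smallest was PRELP at an unadjusted p of 0.0842 in edgeR. With all libraries DESeq2 and voom called 0 of 7 genes and 0 of all tested genes. At an unadjusted p under 0.05 each also had 0 of 7, against 3.08% of all genes in DESeq2 and 1.97% in voom. With all libraries voom gave 0.32 for BGN, 0.48 for FMOD and 0.34 for OGN. DESeq2 replaces counts that stand far from their group; among the 7 genes it replaced 1 count each for BGN, FMOD and OGN, all from D10000 replicate 27, and gave -0.01, -0.07 and -0.05 for them. With that replacement off they stood at 1.14, 1.47 and 1.68. The 95% intervals of edgeR without the library ran from -0.63 to 0.63 for BGN, from -0.76 to 0.59 for FMOD, from -0.78 to 0.70 for OGN and from -0.34 to 1.28 for DCN. They ran from -1.47 to 0.10 for PRELP, from -0.40 to 1.52 for LUM and from -0.57 to 2.06 for ASPN.

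**Figure D4:**
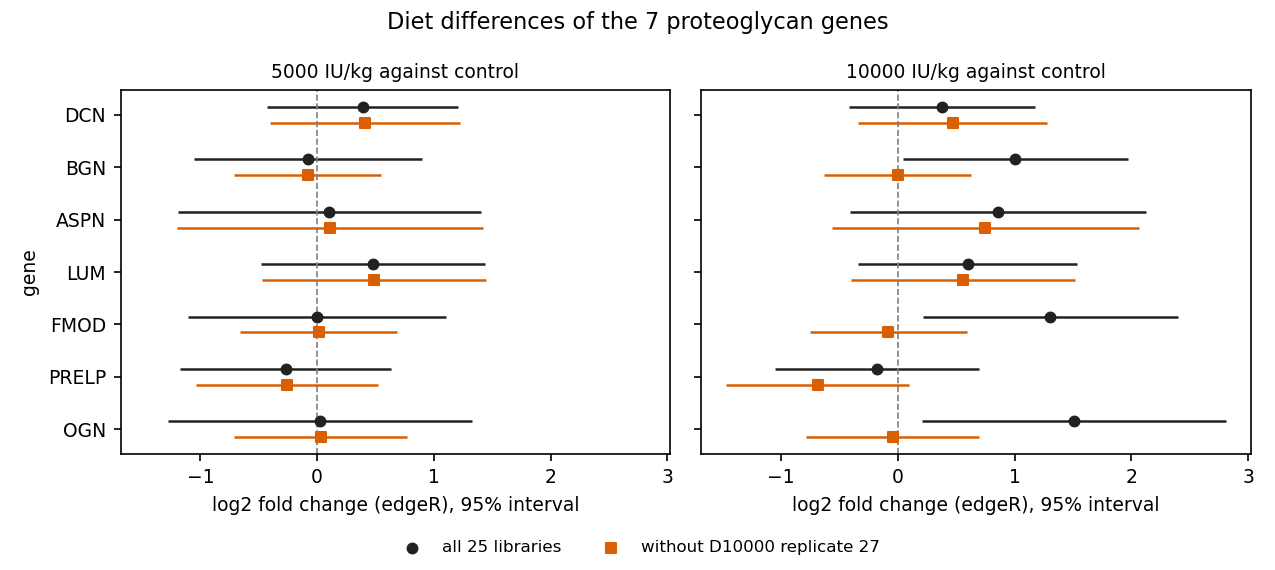
Log2 fold change of each proteoglycan gene against the control (edgeR) with its 95% interval, for 5000 IU/kg on the left and 10000 IU/kg on the right, with all 25 libraries (black circles) and without D10000 replicate 27 (orange squares). At 10000 IU/kg BGN, FMOD and OGN stand at 1.01, 1.31 and 1.51 with that library and at 0.00, -0.08 and -0.04 without it.

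At 5000 IU/kg against the control the highest values were those of LUM and DCN. The log2 fold change was 0.48 ± 0.47 (SE, n = 8 per diet) for LUM, 0.39 ± 0.40 for DCN, 0.10 ± 0.64 for ASPN, 0.02 ± 0.63 for OGN and 0.00 ± 0.54 for FMOD. BGN stood at -0.08 ± 0.48 and PRELP at -0.27 ± 0.44. Hence 5 of 7 genes were above 0, as were 51% of the tested genes, with a median of 0.02 against 0.01 over all tested genes. In edgeR 0 of 7 passed the adjusted threshold, where 0% of all tested genes did, and 0 of 7 had an unadjusted p under 0.05, against 3.38% of the tested genes (372 genes). Without D10000 replicate 27, which belongs to neither diet but enters the filter, the scaling and the spread, 5 of 7 were above 0 (51.7% of the tested genes) and 0 of 7 had an unadjusted p under 0.05 (4.35%). With all libraries DESeq2 and voom likewise gave 0 of 7 at either threshold. Over all genes both called 0 after adjustment, and 4.64% (DESeq2) and 3.65% (voom) had an unadjusted p under 0.05. The value of DCN rested on D5000 replicate 18, without which it was -0.08, and that of LUM on D5000 replicate 25, without which it was 0.03. With the assigned share as a covariate LUM stood at 0.75 and DCN at 0.09, and scaled by library totals DCN stood at 0.68.

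The comparison of 10000 with 5000 IU/kg shares its D10000 libraries with the comparison against the control, and the same genes led it. OGN stood at 1.49 ± 0.63 (SE, n = 9 against 8), FMOD at 1.30 ± 0.54 and BGN at 1.09 ± 0.47, and without D10000 replicate 27 at -0.08 ± 0.36, -0.09 ± 0.33 and 0.08 ± 0.31. DCN (-0.01 ± 0.39), LUM (0.12 ± 0.46) and PRELP (0.09 ± 0.43) were close to 0, and ASPN stood at 0.76 ± 0.62. Above 0 were 6 of 7 genes with all libraries, against 54.6% of the tested genes, and 4 of 7 without the library, against 50%. In edgeR 0 of 7 passed the adjusted threshold (0% of all genes), and 3 of 7 had an unadjusted p under 0.05 with all libraries, against 2.94% of the tested genes. Without D10000 replicate 27 there were 0 of 7, against 2.03%. With all libraries DESeq2 and voom gave 0 of 7 at an unadjusted p under 0.05, against 3.58% and 2.68% of all genes.

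Tests that use the 3 diets at once called 0 of 7 genes in edgeR. They also called 0 of all tested genes, with and without D10000 replicate 27. The joint test of both doses had its smallest unadjusted p for FMOD (0.019, adjusted p = 1.00) with all libraries and for PRELP (0.218, adjusted p = 0.998) without D10000 replicate 27. The trend per 5000 IU/kg with all libraries was largest for OGN at 0.77 ± 0.30 (SE), FMOD at 0.67 ± 0.25 and BGN at 0.51 ± 0.23, with an adjusted p of 0.999 for each in edgeR. Without that library it was largest for ASPN at 0.38 ± 0.31 (SE) and PRELP at -0.34 ± 0.19, followed by LUM at 0.28 ± 0.24 and DCN at 0.23 ± 0.20, on the log2 scale. It was 0.00 ± 0.15 for BGN, -0.04 ± 0.16 for FMOD and -0.02 ± 0.18 for OGN. In counts simulated from these libraries, the 10000 IU/kg comparison recovered 20% of genes changed by 1 on the log2 scale and missed the others. It recovered 90% of those raised by 2 and 74% of those lowered by 2, with 2 false calls. Recovery at the spread that each of the 7 proteoglycan genes had in the real libraries was not tested.

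The 2 highest DCN values were those of the 2 libraries with the lowest assigned share. D5000 replicate 18 had 24.9% and D10000 replicate 2 28.4% of its reads assigned to genes, the lowest of the 25, and they held the 495 and 352 CPM of DCN. Liver transcripts were high in both as well, at 18432 and 18446 CPM. D10000 replicate 7 had the highest liver level of 23152 CPM, the next lowest share (38.2% assigned) and 90.3 CPM of DCN. Over the 24 libraries without D10000 replicate 27, Pearson r of DCN (log2 CPM) with the assigned share was -0.49 (permutation p = 0.0158, adjusted over 7 genes 0.0553) and Spearman rho was -0.12 (permutation p = 0.562). Without the 2 libraries farthest from the median share r was 0.06, so the relation rested on them. Without both low-share libraries the DCN difference from the control was -0.07 at 5000 IU/kg and 0.15 at 10000 IU/kg; this setting was added once the data had been seen. The cause of the high DCN values in these 2 libraries was not tested, neither for liver transcripts nor for the low share. The level of FMOD was also lower where more reads were assigned (r = -0.54, permutation p = 0.00682, adjusted 0.0477, and rho = -0.52, permutation p = 0.00953, adjusted 0.0667), with r = -0.28 without the 2 farthest libraries. BGN had r = -0.33 (permutation p = 0.111, adjusted 0.194) and rho = -0.47 (permutation p = 0.021, adjusted 0.0734), with r = -0.50 without the 2 farthest libraries. Within diets r of FMOD was -0.59 in the control, -0.77 in D5000 and -0.27 in the other 8 D10000 libraries, with adjusted exact permutation p of 0.431, 0.297 and 0.766 over 21 relations. By rank the D5000 relation of FMOD passed (rho = -0.90, exact permutation p = 0.0046, adjusted 0.0479), and those in the control (rho = -0.71) and D10000 (rho = -0.21) did not. For PRELP the control had r = -0.84 (exact permutation p = 0.00975, adjusted 0.205) and rho = -0.90 (exact permutation p = 0.0046, adjusted 0.0479). Its r was 0.56 in D10000 without replicate 27 (exact permutation p = 0.142, adjusted 0.431) and 0.12 over the 24 libraries.

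How the 7 genes varied together was described by their rank correlations. Over 24 libraries without D10000 replicate 27 the Spearman rho of their 21 pairs ran from -0.32 to 0.45 with a mean of 0.08, and 12 pairs were above 0. After adjustment over the pairs, 0 of 21 passed in permutation tests, and 3 (BGN with ASPN, DCN with ASPN and BGN with FMOD) had an unadjusted p under 0.05. The highest rho was that of BGN and ASPN (rho = 0.45, permutation p = 0.03, adjusted 0.329, and r = 0.42, permutation p = 0.0423, adjusted 0.296, with r = 0.48 without the 2 libraries farthest in BGN). The highest r was that of DCN and FMOD (r = 0.56, permutation p = 0.00409, adjusted 0.0859), which was 0.32 without the 2 libraries farthest in DCN, and their rho was 0.38 (permutation p = 0.0664, adjusted 0.349). DCN and LUM, the neighbouring genes, had a rho of 0.22 (permutation p = 0.308, adjusted 0.576). FMOD and PRELP had one of 0.25 (permutation p = 0.241, adjusted 0.576). With all 25 libraries the r of FMOD and OGN was 0.75 (permutation p = 0.00538, adjusted 0.0565), with a rho of 0.30 and an r of 0.15 without the 2 libraries farthest in FMOD. Without D10000 replicate 27 the r was 0.24 (permutation p = 0.257). Values of a library share its total count and its mix of tissues.

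**Figure D5:**
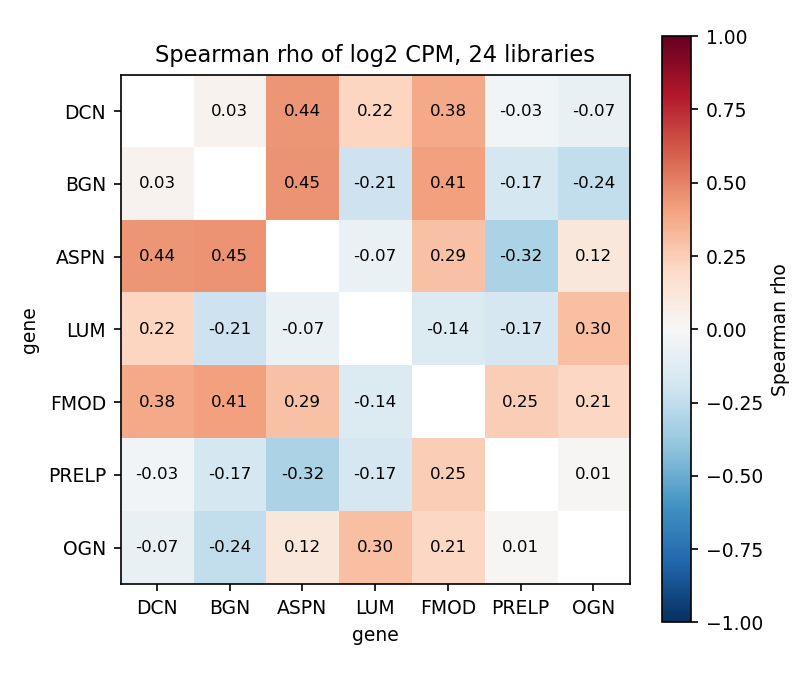
Spearman rho of log2 CPM for each pair of the 7 proteoglycan genes over the 24 libraries without D10000 replicate 27. The values run from -0.32 for ASPN and PRELP to 0.45 for BGN and ASPN, and the pairs of neighbouring genes stand at 0.22 (DCN and LUM) and 0.25 (FMOD and PRELP).

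Across all 9666 tested genes with a symbol, the genes most like a member by Spearman rho over these 24 libraries were not members of the family. For DCN they were EXOC5 (0.83), RPS6KB1 (0.78) and C11orf58 (0.78), for BGN CALR (0.81), FOXA3 (0.81) and HYI (0.77), and for ASPN LEO1 (0.75), SNRPF (0.74) and RAB3IL1 (0.74). For LUM they were GPRC5B (0.71), AMOTL1 (0.69) and the fibril-associated collagen COL14A1 (0.65), which was the one gene of the collagen and fibril list among the 21. For FMOD they were ATRN (0.86), PHTF1 (0.76) and HES1 (0.76), for PRELP GTF2F1 (0.84), BCAT1 (0.76) and CCDC107 (0.75), and for OGN NDUFB1 (0.73), SYNJ2BP (0.72) and AHI1 (0.70). The best-placed family member was OGN for LUM, at rank 324, and for FMOD it was BGN, at rank 2447. These ranks describe 24 libraries, and each top gene is the extreme of a long list of values.

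Of 11 other family members 4 were abundant enough to test. KERA, OPTC, CHAD and CHADL had reads in 1 to 3 libraries, and EPYC, NYX and PODNL1 had 0 reads in the 25 libraries. Without D10000 replicate 27 the tested genes stood, at 10000 IU/kg against control, at 0.56 ± 0.41 (SE) for ECM2, 0.46 ± 0.67 for OMD, 0.38 ± 0.27 for PODN and 0.32 ± 0.33 for TSKU, with 0 of 4 past an unadjusted p of 0.05 in edgeR. With all libraries ECM2 stood at 1.40 ± 0.51 (unadjusted p = 0.00995, adjusted p = 1.00 in edgeR). PODN, the podocan gene, was low in D10000 replicate 27 at 10.2 CPM, where the other libraries had 8.48 to 70.5 CPM. CENPP, which overlaps OGN and ASPN in the RefSeq table, had at most 7.16 CPM in a library.

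Genes that build, bind or cut these proteins are given at 10000 IU/kg against control without D10000 replicate 27, with 0 of each list past the adjusted threshold in edgeR. At an unadjusted p under 0.05 stood 1.76% of all tested genes. Of 19 tested enzymes of chain synthesis 0 had an unadjusted p under 0.05, 8 were above 0 and the median was -0.06, with the glucuronyltransferase B3GAT3 at -0.65 ± 0.33 (SE) and the epimerase DSEL at 0.89 ± 0.66. All 13 tested collagen and fibril genes were above 0, where 51.8% of all tested genes were, with 0 at an unadjusted p under 0.05 and a median of 0.30 against 0.02 over all genes. The 2 with the smallest unadjusted p were COL1A2 at 0.61 ± 0.35 and fibronectin (FN1) at 0.36 ± 0.34. Of 17 genes of TGF-beta signalling and myostatin 12 were above 0 and 1 had an unadjusted p under 0.05 (median 0.14). That gene was the matricellular factor CCN2 at 0.92 ± 0.36, and the co-receptor TGFBR3 stood at 0.61 ± 0.30. Among 9 receptors 8 were above 0 (median 0.15), with the growth factor receptor IGF1R at 1.46 ± 0.60 the 1 gene under an unadjusted p of 0.05. LRP6, a Wnt co-receptor, stood at 0.48 ± 0.35. Of 8 proteases and their helpers 5 were above 0 (median 0.05), and the membrane protease MMP14 was the 1 under an unadjusted p of 0.05, at -0.82 ± 0.38. The procollagen helper PCOLCE2 stood at 0.81 ± 0.46. With all libraries MMP14 turned to 0.62 ± 0.57, the protease median was 1.38, and 4 of 9 tested proteases had an unadjusted p under 0.05, all higher, against 2.39% of all tested genes. The listed proteases that passed the count filter numbered 9 with D10000 replicate 27 and 8 without it. D10000 replicate 27 held the highest level of 7 of the 12 proteases with an identifier, all 7 among the 9 tested, and of 22.6% of all tested genes.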

How the data were processed

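The files deposited hold raw counts, read numbers for each pig gene of Ensembl, with 1 file per animal. Per the labels' protocols, the kit was QuantSeq 3' mRNA-Seq FWD (Lexogen) on total RNA. FastQC is named in the submitters' processing notes, with no version. Aligner, counter, build and strand setting are not given in the sources used here. Summary lines (reads in no feature, 16.3% to 37.2% of a file, not aligned uniquely, 12.5% to 38.7%, and ambiguous, 0.299% to 0.608%) and spike-ins stayed out of library sizes and tests. An identifier that 1 file lacked was dropped, and 14856 of 25879 had a symbol.

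CPM was computed over the pig gene rows, with 0.5 added before log2. Genes passing filterByExpr (minimum count 10, minimum total 15) were scaled by TMM and fitted for diet alone, over the 25 libraries together, with the quasi-likelihood functions glmQLFit and glmQLFTest of edgeR 4.0.16 (robust) in R 4.3.3. Adjustment was by Benjamini-Hochberg over all genes tested. Intervals of fold changes are at 95%. No block was used: litters are not in the labels, and the diets share no animal numbers. Alternatives were DESeq2 1.42.0, voom (limma 3.58.1), RLE or total scaling, no filter, a covariate for the percentage of reads assigned, and leaving out libraries. Relations across libraries had 100000 permutations, or full enumeration for 8 libraries. CPM intervals are Clopper-Pearson intervals. The fit was tested on simulated counts with 200 changed genes.

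Named genes were the 7 members, the tested genes of the list of other family members, the 2 genes with the smallest unadjusted p of each other list at 10000 IU/kg without D10000 replicate 27, and the 3 genes most like each member. Members, lists and alternatives were chosen with earlier results of these data known. The labels name no batch.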

Additional observations from a re-analysis of the deposited data

Results flagged for a closer look

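In 21 groups (7 genes in 3 diets) the highest and the lowest library were compared with the spread of their group on the log2 CPM scale, a comparison that chance flags in about 1 of 20 groups. Of the values, 5 stood far from the other libraries. D10000 replicate 27 did so for OGN (1201 CPM, the other 8 at 31.4 to 99.6), FMOD (205.9 CPM, the others at 5.46 to 19.3) and BGN (454.9 CPM, the others at 15.9 to 68.2). BGN in control replicate 23 stood at 81.99 CPM, above the other 7 controls at 20.2 to 35.7. PRELP in D5000 replicate 11 stood at 2.042 CPM, below the other 7 at 7.72 to 22.2, with 10 reads behind it.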

How the results depend on the processing

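In the settings run, edgeR, DESeq2 and voom called 0 of 7 proteoglycan genes in each comparison (DESeq2 with replacement off gave no p for BGN, FMOD and OGN). No paired analysis was possible because the labels do not give the litters that were spread over the diets, and animal numbers are not shared; any likeness of littermates is not modelled. Over all genes the count of 0 at 10000 IU/kg became 1 with DESeq2 and D10000 replicate 27 left out; this gene, IFNGR2, was named after its value was seen. Of 210 gene values under 10 other settings, 181 kept their direction. These 10 do not include leaving out D10000 replicate 27 alone, and only the covariate fit and a DESeq2 fit among them were run without it. Leaving it out alone turned BGN, FMOD and OGN at 10000 IU/kg against control. It also turned DCN, FMOD, PRELP and OGN at 10000 against 5000 IU/kg, and the other directions stayed. The median of the 7 at 10000 IU/kg against control (0.86) was 0.34 with voom, 1.11 with library totals, -0.013 with DESeq2, 0.064 with the assigned share as a covariate and library 27 left out, and 0.0011 with DESeq2 without it. At 10000 against 5000 IU/kg (0.76) it was 0.46 and 0.98 with voom and totals, and in the other fits 0.066, -0.035 and 0.056. Leaving out 1 library gave -0.0010 to 1.02 and 0.057 to 1.04, both lowest without D10000 replicate 27, and -0.092 to 0.29 at 5000 IU/kg. Scaling by library totals shifted the median of all genes at 10000 IU/kg from 0.07 to 0.24. Depth limits ASPN most, with a median of 22 reads per library.

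Some directions turned. At 5000 IU/kg, without the 2 libraries under 30% assigned (chosen after seeing the data, as were the DESeq2 fits without library 27), DCN was -0.073, BGN 0.013 and FMOD -0.10. FMOD was -0.012 with no filter, -0.00037 with voom, -0.11 with the covariate and -0.067 with library 27 left out as well. OGN was -0.0030 with library totals and -0.23 with voom. At 10000 IU/kg, DESeq2 gave BGN -0.013, FMOD -0.069 and OGN -0.049. Without library 27 it gave FMOD -0.074 and OGN -0.036, and the covariate then gave FMOD -0.11. At 10000 against 5000 IU/kg, DCN was 0.14 with voom, 0.13 with the covariate, 0.20 with it and without library 27, 0.22 without the 2 low-share libraries and 0.056 with DESeq2 without library 27. DESeq2 gave FMOD -0.091 and OGN -0.075, and without library 27 FMOD -0.094, OGN -0.062 and PRELP -0.43. The covariate without library 27 gave LUM -0.060, FMOD -0.045, PRELP -0.55 and OGN -0.035. Their cause was not tested, except that DESeq2 replaces the counts of library 27.

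Leaving out 1 library in turn gave, at 5000 IU/kg, -0.080 to 0.58 for DCN, -0.27 to 0.079 for BGN, -0.18 to 0.41 for ASPN, -0.10 to 0.29 for FMOD and -0.25 to 0.16 for OGN. At 10000 IU/kg it gave -0.0010 to 1.21 for BGN, -0.082 to 1.59 for FMOD and -0.044 to 1.71 for OGN. At 10000 against 5000 IU/kg it gave -0.27 to 0.48 for DCN, -0.083 to 0.57 for LUM, -0.094 to 1.50 for FMOD, -0.43 to 0.25 for PRELP and -0.076 to 1.76 for OGN. The mean rho of the pairs was 0.15 with all libraries, 0.08 without library 27, 0.11 on TMM-scaled CPM and 0.17 centred within diets.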
